A study of Mus musculus with 10 samples.

Results

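The comparison of LPS with DMSO covers 6 CUT&Tag peak lists of p65, 3 from RAW264.7 cells given the solvent DMSO and 3 from cells given DMSO and lipopolysaccharide (LPS), out of the 10 samples of the series. RAW264.7 is a macrophage-like line from a mouse tumour induced by the Abelson leukaemia virus, labelled wild type, and all cultures were treated for 12 h. In CUT&Tag an antibody against a DNA-binding protein steers a transposase to it, and the DNA fragments cut out there are sequenced. The labels name a p65 antibody and the methods an antibody against phosphorylated p65, so the captured form was not settled. All cells came from 1 line, and nothing states that the 3 libraries of a group were separate cultures, so their spread may be technical.

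LPS, a cell-wall component of Gram-negative bacteria, is sensed by the receptor Tlr4. The signal runs through adaptors and the ubiquitin ligase Traf6 to the IκB kinase, which releases the NF-κB dimer of p65 (Rela) and p50 (made from Nfkb1) into the nucleus. There it binds κB sites at genes of cytokines, chemokines, survival factors and its own inhibitors, among them IκBα (Nfkbia) and A20 (Tnfaip3). In macrophages much of the inducible binding lies at enhancers that the lineage factor PU.1 (Spi1) has opened.

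Peaks gained with LPS lay at 4.15% of all protein-coding genes, and 36 of 59 gene lists had a larger share. They lay at 9 of 33 genes of TNF receptor and survival signalling (27.3%), among them Tnfrsf8, Traf1, Bcl2l1 and Ier3. Nfkb1 was 1 of 11 NF-κB subunit and kinase genes (9.09%), and Cxcl2 and Ccl5 were 2 of 30 chemokine genes (6.67%). Socs3 was among 4 of 23 JAK-STAT and SOCS genes (17.4%). Acod1, Ptges and Sod2 were among 5 of 24 inducible enzyme genes (20.8%). Peaks lost with LPS were fewer, and the 220 genes at them included 5 of 43 cell-cycle genes (Plk1, Mcm6, Cdk1, E2f2, Top2a; 11.6%, against 1.01% of all genes), 3 of them with no peak in the complete LPS lists either. Where all 6 libraries had a peak, the p65 signal rose most at Acod1, with Nfkb1 and Nos2 also among the rises, and it fell at Id2. Many familiar targets, including Tnf, Nfkbia and Nfkb2, had peaks in the DMSO libraries already and did not pass the test.

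Promoters under regions that were gained, lost or rose are shown, since they place the calls on DNA. All but that of Acod1 were picked because they hold a match, and only 7 of the 61 genes with a promoter under a gained region hold a κB consensus. They are the 300 bases from 250 before to 50 after the annotated start, from RefSeq on GRCm38.p6, printed 5′ to 3′ on the strand of the gene. Cxcl2 (chr5:90903649-90903948, + strand), the gene of a neutrophil chemokine, and Ier3 (chr17:35821463-35821762, + strand), the gene of a survival factor induced by NF-κB, lay under gained regions, and capitals mark matches to the κB consensus on either strand. Gstp1 (chr19:4037863-4038162, - strand), the gene of a glutathione transferase, also lay under a gained region, and capitals mark TGANTCA, the AP-1 motif. Plk1 (chr7:122159185-122159484, + strand), the gene of a mitotic kinase, and Mcm6 (chr1:128359656-128359955, - strand), the gene of a subunit of the replicative helicase, lay under lost regions, and capitals mark CCAAT, or ATTGG where the motif is on the opposite strand. Acod1 (chr14:103046762-103047061, + strand), the gene of the itaconate-making enzyme, lay under the region with the smallest p-value of all rises and has 0 matches to the κB consensus, so it is printed without capitals.
Cxcl2: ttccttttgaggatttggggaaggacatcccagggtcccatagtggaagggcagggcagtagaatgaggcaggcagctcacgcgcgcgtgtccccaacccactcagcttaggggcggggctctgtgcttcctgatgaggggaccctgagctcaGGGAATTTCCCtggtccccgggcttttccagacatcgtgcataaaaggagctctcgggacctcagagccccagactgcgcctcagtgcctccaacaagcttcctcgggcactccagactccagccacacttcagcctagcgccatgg
Ier3: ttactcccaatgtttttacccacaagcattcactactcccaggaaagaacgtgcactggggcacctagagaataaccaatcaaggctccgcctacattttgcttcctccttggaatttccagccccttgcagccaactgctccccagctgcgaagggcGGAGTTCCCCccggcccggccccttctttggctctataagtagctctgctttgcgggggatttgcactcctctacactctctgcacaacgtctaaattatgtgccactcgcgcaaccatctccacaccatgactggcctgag
Gstp1: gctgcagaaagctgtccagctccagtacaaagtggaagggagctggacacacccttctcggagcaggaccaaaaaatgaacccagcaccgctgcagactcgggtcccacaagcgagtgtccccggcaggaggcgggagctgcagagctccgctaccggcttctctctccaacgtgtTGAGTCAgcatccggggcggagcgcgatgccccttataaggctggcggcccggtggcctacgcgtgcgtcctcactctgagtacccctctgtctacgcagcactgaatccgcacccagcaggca
Plk1: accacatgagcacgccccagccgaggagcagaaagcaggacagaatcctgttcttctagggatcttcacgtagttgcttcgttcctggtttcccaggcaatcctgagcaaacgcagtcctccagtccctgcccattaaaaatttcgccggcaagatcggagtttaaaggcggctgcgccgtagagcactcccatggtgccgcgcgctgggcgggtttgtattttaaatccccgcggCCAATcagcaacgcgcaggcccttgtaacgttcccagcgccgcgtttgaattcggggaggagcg
Mcm6: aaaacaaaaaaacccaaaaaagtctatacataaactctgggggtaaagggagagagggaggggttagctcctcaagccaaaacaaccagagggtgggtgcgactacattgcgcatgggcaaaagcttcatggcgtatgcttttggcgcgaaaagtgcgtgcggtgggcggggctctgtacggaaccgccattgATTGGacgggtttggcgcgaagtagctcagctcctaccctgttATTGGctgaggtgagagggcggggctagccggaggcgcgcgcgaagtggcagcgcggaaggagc
Acod1: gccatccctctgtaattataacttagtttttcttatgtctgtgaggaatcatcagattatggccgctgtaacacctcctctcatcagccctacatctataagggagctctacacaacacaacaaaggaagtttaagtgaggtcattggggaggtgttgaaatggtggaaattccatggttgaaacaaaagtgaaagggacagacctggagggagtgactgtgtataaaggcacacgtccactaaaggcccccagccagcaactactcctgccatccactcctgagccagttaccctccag
The first κB match began 97 bases before the start in Cxcl2, where matches on both strands overlap, and the match in Ier3 began 92 bases before it. The AP-1 match in Gstp1 began 74 bases before the start. The CCAAT match in Plk1 began 14 bases before the start, and those in Mcm6 began 57 and 14 bases before it. A match describes the letters of the window and does not show that a factor was bound there.

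The DMSO libraries were shallower. Their lists held 37551 to 43450 peaks on chromosomes 1 to 19, X and Y, and the LPS lists 55637 to 63498. The lowest local background of a list, which tracks depth, was 1.09 to 1.40 fragments in DMSO and 2.23 to 2.34 in LPS libraries, 1.78 times higher on average. All lists were therefore cut to their 37551 strongest peaks by the deposited −log10 p, after which the weakest summit stood at 7.15 to 8.11 times the background in every library. After this cut the LPS libraries still resembled each other more (0.448 to 0.456 of the regions of a pair in common) than the DMSO libraries did (0.345 to 0.364). Pairs of 1 DMSO and 1 LPS library had 0.354 to 0.379 in common, and every DMSO library had more in common with each LPS library than with either of the other DMSO libraries. The part of this in the larger number of gained than lost regions was not tested. Of the 15 macrophage markers, 73.3% to 86.7% had a peak within 3 kb of a gene end in each library. The shares were 27.3% to 45.5% of T cell, 16.7% to 41.7% of B cell, 15.4% to 30.8% of fibroblast and 0% to 23.1% of epithelial markers, with 0% to 8.33% of the 12 hepatocyte markers and 10% to 20% of the 20 neuronal genes.

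Merging the 6 equal-length lists gave 94252 regions. A region counted as gained when all 3 LPS libraries and 0 DMSO libraries had a peak in it, and as lost in the opposite case. By this rule 1452 regions were gained (1.54% of all) and 242 were lost (0.257%), while 12987 were called in all 6 libraries. Of the gained regions 19% lay within 3 kb of an end of a protein-coding gene, 45.7% inside a gene and 35.3% between genes, against 26.4%, 45.2% and 28.5% of all 94252 regions. Of the regions called in all 6 libraries 56.3% lay at gene ends, and of the lost regions 46.3% did. In the complete DMSO lists 95.6% of the gained regions had no peak either, whereas only 36.0% of the lost regions (87 of 242) had no peak in the complete LPS lists. The cut bears on this contrast, since it kept 86.4% to 100% of the DMSO lists and 59.1% to 67.5% of the LPS lists, and the complete DMSO lists add few peaks.

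**Figure D1:**
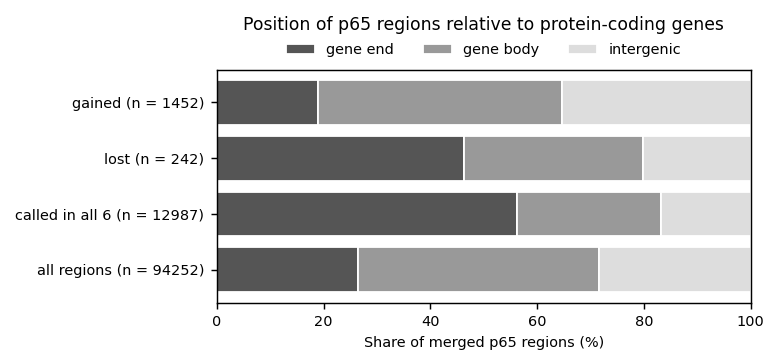
Stacked bars give the share (%, x axis) of merged p65 regions at gene ends (within 3 kb of either end of a protein-coding gene), in gene bodies and between genes, for regions gained with LPS, lost with LPS, called in all 6 libraries, and all 94252 regions. Gained regions had 19% at gene ends, against 56.3% for regions called in all 6 libraries.

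Regions were ranked by their mean place in the lists that held them. The first gained region lay inside Marchf11, the gene of a membrane-bound ubiquitin ligase (chr15:26357611-26360419). The summits held 180, 215 and 264 fragments in LPS replicates 1 to 3, and no DMSO list had a peak there. Srpk2, the gene of a kinase of splicing factors, followed with 96, 104 and 110 fragments (chr5:23660944-23662185). The third lay 7459 bp from Oas1c, in the cluster of interferon-induced oligoadenylate synthetases, with 112, 81 and 79 fragments (chr5:120819999-120821304). Banp, the gene of a DNA-binding protein of the nuclear matrix, had 83, 78 and 102 fragments (chr8:122013031-122014362). Fut8, which encodes the core fucosyltransferase of N-glycans, had 66, 83 and 99 (chr12:77292250-77294004). Among the next 7, regions inside Arhgef3, Stk40 (a pseudokinase) and Sde2 (a replication and splicing factor) lay in genes, and those nearest to Stk31, Bcas1, Dcn and Thg1l lay 10949 to 116357 bp from them. In none of these 12 did a complete DMSO list hold a peak, and their summits ranged from 45 to 264 fragments. The lists hold nothing under their threshold, so a weaker signal in DMSO could not be seen.

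At gene level, 908 of 21887 protein-coding genes (4.15%) had a gained region inside them or within 3 kb, and 220 (1.01%) had a lost region. Longer genes collected more: 1.14% of the 7297 shortest genes (up to 8739 bp) had a gained region and 8.47% of the 7296 longest (31241 bp or more). The 59 gene lists are read against these shares, with no test of a list. Gained regions touched a larger share than 4.15% in 36 lists and no member in 17.

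**Figure D2:**
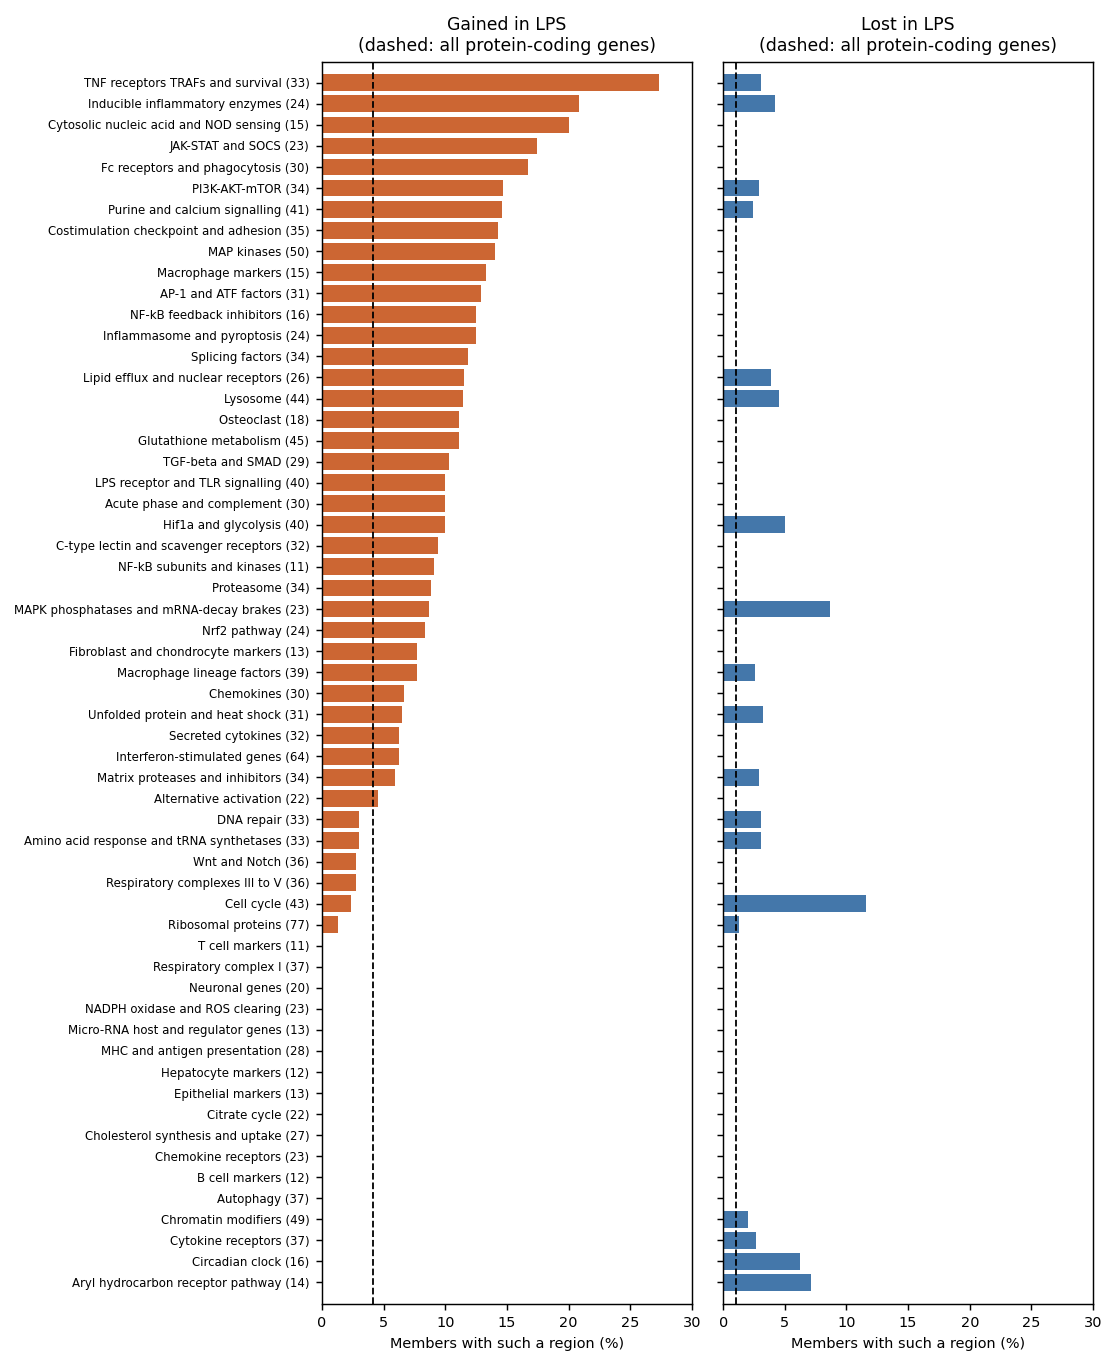
Bars give the share (%, x axis) of members of the gene lists shown with a p65 region gained (left) or lost (right) with LPS, with the number of members in brackets. The dashed lines mark all protein-coding genes, 4.15% for gained and 1.01% for lost. TNF receptors, TRAFs and survival genes stand highest on the left at 27.3%, and cell-cycle genes on the right at 11.6%.

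The highest share was that of TNF receptors, TRAF adaptors and survival genes, with 9 of 33 members (27.3%), and 6 of these had the region at a gene end, which 1.45% of all genes had. The list has a median gene length of 16940 bp, and of all genes of 8741 to 31240 bp 2.84% had a gained region. Tnfrsf8, which encodes the activation receptor CD30, had 4 separate gained regions. The first of them by rank (chr4:145282998-145284429) had 43, 47 and 32 fragments in the LPS libraries and no peak in DMSO. Over the whole gene the equal-length lists held 0, 1 and 2 peaks in DMSO and 8, 7 and 5 in LPS (mean 1.00 ± 1.00 against 6.67 ± 1.53, SD, n = 3). Bcl2l1, which encodes the anti-apoptotic Bcl-xL, had 3 gained regions, of which 2 also had a peak in 1 complete DMSO list, and its peaks numbered 7, 6 and 10 in DMSO and 15, 16 and 19 in LPS. The groups did not overlap at either gene, which the gained regions of these genes largely fix, so no test is given. At the promoter of Ier3 the gained region (chr17:35820535-35822279) had 127, 153 and 183 fragments. Its other members were Traf1 and Traf5, adaptors of TNF receptors, Tnfrsf11a (the receptor RANK), Bcl2 and Bcl2a1b (survival proteins) and Fadd, the adaptor of death receptors. Bcl2a1b has close copies on the same chromosome, and reads could have been divided among them. The count was 9 to 13 when each library was left out in turn, where 1316 to 1623 of all genes had a gained region, and 4 to 13 over all alternatives, where 317 to 2724 did.

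The 11 genes of NF-κB subunits and kinases have a median length of 34172 bp. Of all genes of 31241 bp or more 8.47% had a gained region. Among the 11, Nfkb1 was the member with gained regions (9.09% of the list, against 4.15% of all genes). It had 4 of them, the first by rank with 42, 57 and 46 fragments (chr3:135639604-135641732), and its peaks numbered 9, 8 and 11 in DMSO and 18, 17 and 17 in LPS (9.33 ± 1.53 against 17.3 ± 0.577, SD, n = 3), a difference to which the gained regions themselves contribute. Nfkb1 and Tnfrsf8 were among 12 genes with 3 or more gained regions, with Lpp (5 in a gene of 599229 bp) at the head. Of 16 feedback inhibitors 2 (12.5%) had a gained region at a gene end. These were Nfkbiz, which encodes the nuclear cofactor IκBζ, with 27, 28 and 29 fragments, and Nfkbid, which encodes the related IκBNS, with 21, 25 and 23. Both were weak, at mean places 33530 (Nfkbiz) and 25477 (Nfkbid) of 37551. The smallest summits kept in LPS replicates 1 to 3 had 17, 17 and 19 fragments. When 1 library was left out, 1 to 4 subunits and kinases and 2 to 4 feedback inhibitors had a gained region. Of all genes 1316 to 1623 then had one. Over all alternatives the counts were 0 to 4 and 0 to 5, where 317 to 2724 of all genes had one.

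In the pathway upstream, 4 of 40 LPS receptor and Toll-like receptor genes (10.0%) had a gained region. At Traf6 the region covered the start (chr2:101678115-101678776) with 36, 32 and 47 fragments. The others were Irak2 (a kinase of the receptor complex), Tab2 (an adaptor of the kinase TAK1) and Peli1 (a ubiquitin ligase), all inside the genes. MAP kinase genes, with a median length of 57565 bp, gave 7 of 50 (14%, against 8.47% of genes of 31241 bp or more), among them Map3k20 and Map3k5, which encode stress kinases at the top of the cascade, and Mapkapk2, which encodes a kinase that stabilizes cytokine mRNA. Of 15 genes of cytosolic nucleic acid and NOD sensing 3 (20%) were touched, namely Aim2 and Zbp1 (sensors of nucleic acids) and Ripk2 (the kinase below the NOD receptors). Zbp1 had 1 peak in each LPS list and 0 in each DMSO list. Nlrp3 and Casp4, the sensors of the canonical and non-canonical inflammasome, and Nek7, a partner of Nlrp3, made up 3 of 24 inflammasome genes (12.5%). Leaving out 1 library gave 5 to 8 LPS receptor genes and 9 to 12 MAP kinase genes with a gained region. In the sensing list and the inflammasome list it gave 3 to 5 each, and over all genes 1316 to 1623. Over all alternatives 1 to 10 LPS receptor genes and 1 to 17 MAP kinase genes had a gained region. The sensing list then gave 0 to 5, the inflammasome list 1 to 6 and all genes 317 to 2724.

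Among secreted mediators, of 30 chemokine genes 2 had a gained region (6.67%, against 4.15% of all genes), both at gene ends. At Cxcl2 (chr5:90902527-90904369) the summits had 133, 133 and 154 fragments in LPS. The gene had 0, 1 and 1 peaks in DMSO and 2 in each LPS library. Ccl5, which encodes a T cell attractant, had 29, 35 and 33 fragments (chr11:83527675-83528807), and it went from 0 peaks in every DMSO list to 2, 1 and 1. Osm and Tnfsf9 (the ligand 4-1BBL) were the members of 32 secreted cytokines (6.25%), Osm with 53, 54 and 48 fragments and Tnfsf9 with 39, 33 and 36. Of 64 interferon-stimulated genes 4 (6.25%) were touched, Stat2, Trim25, Oasl1 and Isg20. Beside the 4.15% of all genes, the shares of these lists rest on 2 to 4 members each. With 1 library left out, where 2 of 2 suffice in its group and 1316 to 1623 of all genes have a gained region, 7 to 11 interferon-stimulated genes and 3 to 7 secreted cytokines had one. Over all alternatives 3 to 16 interferon-stimulated genes, 1 to 7 secreted cytokines and 1 to 4 chemokines had one, and 317 to 2724 of all genes. Of 23 chemokine receptors and 28 genes of antigen presentation 0 had one, which at medians of 7253 and 8163 bp is not apart from the 1.14% of genes up to 8739 bp.

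Inducible inflammatory enzymes, with a median length of 32943 bp, gave 5 of 24 (20.8%, against 8.47% of genes of 31241 bp or more). Acod1, which encodes the itaconate-making enzyme, had a region 10942 bp downstream of its start (chr14:103057329-103058579) with 68, 47 and 67 fragments, beside the regions described further on. Ptges, which encodes prostaglandin E synthase, had 89, 95 and 134 fragments in the stronger of its regions (chr2:30924749-30925505). At Sod2, the gene of mitochondrial superoxide dismutase, the region had 115, 100 and 156 fragments (chr17:13009774-13010993), but 1 complete DMSO list also had a peak there. Slc7a11 (the cystine carrier) and Tbxas1 (thromboxane synthase) completed the list. Glutathione genes gave 5 of 45 (11.1%), all at gene ends. The region over the Gstp1 promoter (chr19:4037543-4038594), which also lies within 3 kb of the neighbouring copy Gstp2, had 18, 35 and 42 fragments. The smallest summit kept in LPS replicate 1 had 17 fragments. Every list, DMSO lists included, had 1 peak in or near Gstp1, so the gain was a peak at another place and not a larger number of peaks. Odc1, Chac1 and Lap3, which make polyamines, degrade glutathione and cleave peptides, had the rest.

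JAK-STAT and SOCS genes gave 4 of 23 (17.4%). Socs3, which encodes a feedback inhibitor of cytokine receptors, had 133, 128 and 139 fragments over its promoter (chr11:117968996-117970097), and its peaks numbered 1 in each DMSO list and 2, 3 and 3 in the LPS lists. Stat6, Jak1 and Ptpn11 were the others. Of 31 AP-1 and ATF genes 4 (12.9%) were touched. Batf, which encodes a partner of the Jun and IRF factors, had a region with 112, 159 and 137 fragments (chr12:85704779-85705623), and it had 0 peaks in every DMSO list and 3, 3 and 2 in the LPS lists. Adhesion and costimulation gave 5 of 35 (14.3%), including Itgam (CD11b), with 42, 45 and 59 fragments over its start, and Cd44, the hyaluronan receptor. Fc receptor and phagocytosis genes gave 5 of 30 (16.7%), with 3 regions in Lyn, and none of the 5 at a gene end. Respiratory complex I (0 of 37) and ribosomal proteins (1 of 77, 1.30%) hold short genes (medians 7798 and 3175 bp), and their shares are near the 1.14% of genes up to 8739 bp. Of the 20 neuronal genes, with a median length of 370256 bp, 0 had a gained region.

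Of the genes with a gained or lost region 15 had both. Among the lost, cell-cycle genes had the highest share, 5 of 43 (11.6%, against 1.01% of all genes), and 1 of 43 had a gained region. At the Plk1 promoter (chr7:122158964-122159855) the DMSO summits had 38, 44 and 67 fragments, and no LPS list, cut or complete, held a peak. At the Mcm6 promoter (chr1:128359140-128360275) they had 81, 103 and 87, again with no peak in any LPS list. Cdk1, the mitotic cyclin-dependent kinase, had 46, 32 and 53 near its start, with a peak in 1 complete LPS list. E2f2, which encodes an activator of S-phase genes, had 20, 43 and 43, and 2 complete LPS lists had a peak. Top2a (DNA topoisomerase) had 11, 14 and 17, with none. With lost regions required to be absent from the complete lists, 3 of the 5 remained, and the count was 2 to 9 over all alternatives, in which 75 to 1321 of all genes had a lost region. Spred1 and Spred2, which encode inhibitors of Ras signalling, were 2 of 23 phosphatases and mRNA-decay brakes (8.70%). As many members of this list, Dusp16 and Dusp7 (8.70%), had a gained region, both at gene ends. Gapdh and Pdk1 were 2 of 40 glycolysis genes (5.00%). In that list 4 of 40 (10.0%) had a gained region, all at gene ends (Hif1a, Pgam1, Vhl and Aldoa). In each of these 2 gene lists 1 gene with a lost region remained when absence from the complete LPS lists was required. In the regions of Spred2 and Gapdh 2 complete LPS lists had a peak. No gene of 39 of the 59 lists had a lost region, which at 1.01% of all genes says little of lists of this size.

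The first lost region by rank stood apart in its counts, and whether they reflect p65 was not tested. It lay 32104 bp from Eea1, was 258 bp wide (chr10:96077622-96077879) and had 7779, 8876 and 8574 fragments in the DMSO libraries, with no peak in any LPS list. The second, 40955 bp from Fbxo33 and also narrow (chr12:59262916-59263213), had 76, 121 and 100 with none in LPS. The median width of lost regions was 865 bp. The 8 that followed had 18 to 110 fragments and lay in or near Klhl35, Zfp217, Psap, Arap1, Nfatc2, Micu2, Phlpp1 and Sgcz. Among these, Phlpp1, which encodes a phosphatase of AKT, had no peak in any complete LPS list (110, 96 and 90 fragments in DMSO, chr1:106170931-106171727), and the others had one in 1 to 3. Ifngr1, the gene of the interferon-γ receptor chain, lost a narrow promoter region with 170, 227 and 192 fragments (chr10:19591574-19591941), but 2 complete LPS lists had a peak there. Tradd, the adaptor of TNF receptor 1, had 26, 38 and 31, with a peak in 1 complete LPS list.

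Peaks were also counted over whole genes. A gene went from 0 peaks in every DMSO list to at least 1 in every LPS list in 96 cases (0.439% of genes), and the reverse held for 82 (0.375%). Among listed genes the first kind comprised Ccl5, Batf, Zbp1, Fpr2 (a formyl peptide receptor), Camp (cathelicidin), Ifi44 (an interferon-induced gene), Mmp2 (a gelatinase) and Cldn7 (a tight-junction gene). The second included Ifngr1, Tradd, Mmp19, Prdx4 and Lrrtm4. Every LPS list had more peaks than every DMSO list at 447 genes (2.04%) and fewer at 362 (1.65%). The equal list length fixes the total, so the balance of these counts is set by it, and with all called peaks they were 1797 and 69. Il1b, which encodes interleukin-1β, had 1 peak in each DMSO list and 2, 3 and 3 in the LPS lists, and its antagonist Il1rn had 1, 2 and 2 against 3, 4 and 4. Cd274, which encodes PD-L1, had 4, 3 and 4 against 6, 8 and 6. Pcna, the sliding clamp of DNA replication, had 4, 3 and 3 against 2, 2 and 1. None of these passes a threshold of 0.05, since the exact permutation test over 6 libraries cannot go below p = 0.1.

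**Figure D3:**
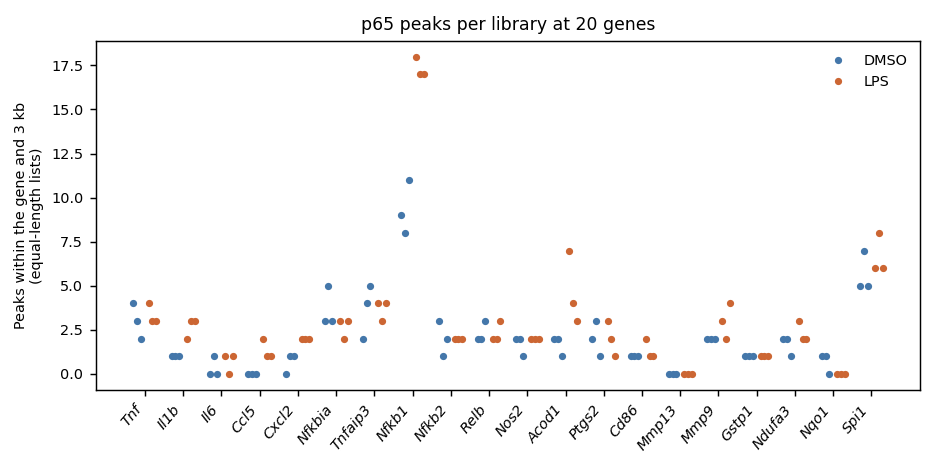
Points give the number of p65 peaks (y axis) inside or within 3 kb of each of 20 genes (x axis) in each of the 3 DMSO and 3 LPS equal-length lists. Nfkb1 stands out with 8 to 11 peaks in DMSO and 17 to 18 in LPS, while at Nfkb2, Relb and Nos2 the groups overlap.

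Regions with a peak in all 6 complete lists (14524) allowed a test of signal strength. The number of fragments at the summit was compared on a log2 scale with limma, each library centred on its median. By this test 140 regions rose with LPS (0.964%) and 71 fell (0.489%) at a Benjamini-Hochberg adjusted p under 0.05. Dividing by the genome background instead, which moves all regions down by 0.21, gave 85 rises and 634 falls. With the log2 of the deposited fold in place of the counts 15 rose and 7 fell, of which 14 and 2 were among the 140 and 71, and with quantile normalization 36 fell, 35 of them among the 71. The calls rest on all libraries: 52 regions rose without LPS replicate 1, 72 without LPS replicate 2 and 50 without LPS replicate 3, and 41 fell without DMSO replicate 2, 33 without DMSO replicate 3, 38 without LPS replicate 1 and 40 without LPS replicate 3.

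The rise with the smallest p-value was at the promoter of Acod1 (chr14:103046129-103048330). Its summits had 37, 33 and 36 fragments in DMSO and 280, 340 and 329 in LPS libraries, a log2 difference of 2.52 (SE 0.19, limma adjusted p = 8.06e-10). Further rises lay at the other end of the gene (log2 0.88, SE 0.22, adjusted p = 0.0346) and 12772 bp away from it (0.96, SE 0.19, adjusted p = 0.00449). The call at the other end was lost without DMSO replicate 2 (adjusted p = 0.101), DMSO replicate 3 (0.128), LPS replicate 1 (0.142) or LPS replicate 2 (0.166), and with scaling by the genome background (0.67, adjusted p = 0.06), and the sign turned with the deposited fold (-0.30, adjusted p = 0.81). The next strongest by p lay 42993 bp from Arntl (chr7:113132241-113135478), with 25, 40 and 36 against 174, 168 and 192 fragments, and 13820 bp from Rnf145 (chr11:44503142-44504973), with 20, 24 and 25 against 140, 178 and 129. A region inside Igf2bp2, which encodes an RNA-binding protein (chr16:22123056-22125569), went from 36, 25 and 19 to 177, 164 and 203 (log2 2.18, SE 0.26), and 2 more regions of this gene rose. At Gstp3 (chr19:4058679-4063589), another gene of the glutathione transferase cluster, counts went from 14, 26 and 20 to 150, 143 and 114 (log2 2.16, SE 0.26, adjusted p = 5.23e-06).

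Inside Nfkb1 (chr3:135669320-135671256) the summits had 19, 37 and 25 fragments in DMSO and 130, 138 and 119 in LPS (log2 1.67, SE 0.25, limma adjusted p = 0.000171), and with the deposited fold the call was lost (1.32, adjusted p = 0.132). At Nos2, which encodes inducible nitric oxide synthase, they had 19, 19 and 22 against 88, 122 and 112 (chr11:78918801-78921604, log2 1.78, SE 0.27, adjusted p = 0.000202). Near Jdp2, the gene of an AP-1 repressor, 18, 29 and 19 became 115, 102 and 106 (chr12:85595250-85596766, log2 1.69, SE 0.26). At Bcl2l1 a region between the gained ones went from 14, 23 and 31 to 97, 109 and 85 (chr2:152805643-152807375, log2 1.53, SE 0.28). In these 4 regions the groups did not overlap after centring, which their choice by the same test largely fixes, so it adds no support. Tnip1 and Tnip2, partners of A20, were 2 of 16 feedback inhibitors with a rise, at log2 1.03 and 1.07, and no inhibitor had a fall. Isg15, Isg20, Il10ra, Il1rl2, Adora2a, Slc7a5, Psma7 and Lrp1 were the other listed genes with a rise. In the 9716 genes with such a region 0.885% had one that rose and 0.741% one that fell. Rises lay at gene ends in 23.6%, against 55.9% of all regions tested.

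**Figure D4:**
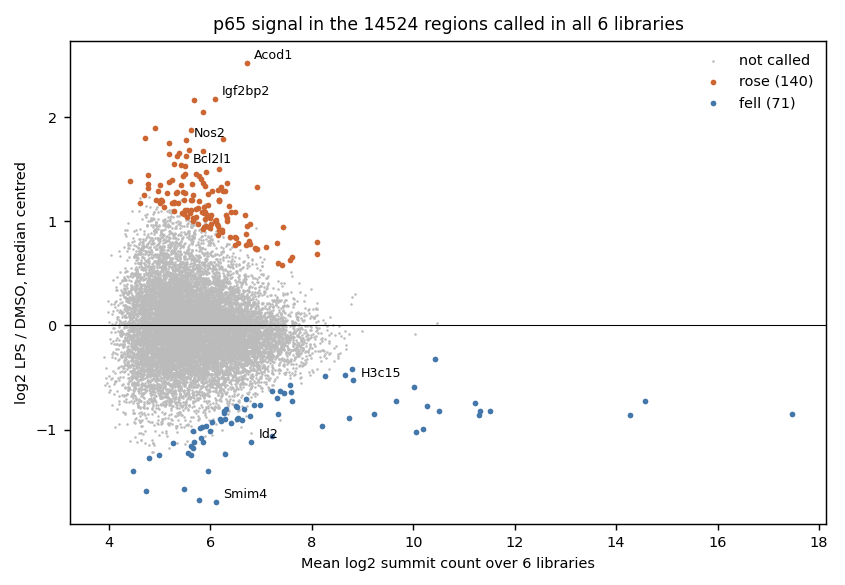
Each point is 1 of 14524 regions with a peak in all 6 libraries, by its mean log2 summit count (x axis) and its median-centred log2 difference between LPS and DMSO (y axis). The 140 regions that rose and the 71 that fell (limma, adjusted p under 0.05) are coloured. Acod1 stands at the top at 2.52, and a row of regions with very high counts lies between -1.02 and -0.32.

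**Figure D5:**
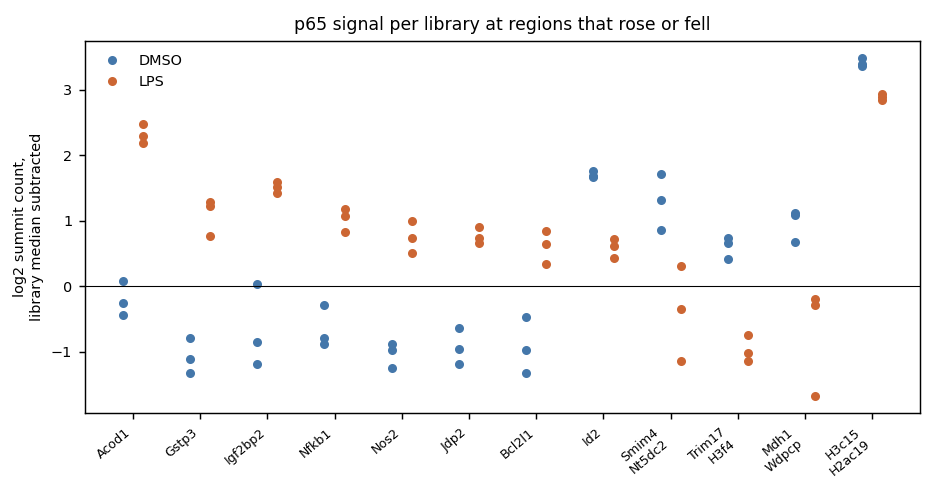
Points give the log2 summit count of each library, with the median of that library subtracted (y axis), for 12 regions that rose or fell (x axis, by gene). The 3 DMSO and 3 LPS points of each region do not overlap, which the choice of called regions largely fixes.

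Of 20 genes described whatever their values, 13 had a region called in all 6 libraries, and 3 (Acod1, Nfkb1 and Nos2) had one that rose. The 2 regions at Tnf differed by 0.33 (95% interval -0.06 to 0.72) and -0.20 on the log2 scale. The summits at Nfkbia nearest its start had 122, 127 and 146 fragments in DMSO and 228, 189 and 183 in LPS, a difference of -0.03 after centring, and a region at the other end differed by 0.55 (adjusted p = 0.358). The largest differences short of the threshold were 0.91 at Tnfaip3 (limma adjusted p = 0.0847), 0.91 at Ptgs2 (cyclooxygenase 2, adjusted p = 0.134) and -0.72 at Spi1 (adjusted p = 0.0989). Il1b (0.36), Nfkb2 (0.16), Relb (0.27), Mmp9 (0.46) and Ndufa3 (0.02) had adjusted p-values from 0.394 to 0.989. Il6, Cd86, Mmp13 and Nqo1 had no region called in all 6 libraries and no gained or lost region, and Mmp13, a collagenase gene, had no peak in any equal-length list. Il6 had 0, 1 and 0 peaks in DMSO and 1, 0 and 1 in LPS.

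The falls with the smallest p-values were at very strong sites, mostly between genes. The first (chr1:24611544-24616182, 23622 bp from Col19a1) had 170052, 213771 and 203564 fragments in DMSO and 168881, 166076 and 169514 in LPS (log2 -0.85, SE 0.03, limma adjusted p = 8.08e-19). The others of the first 5 lay inside Myo3a and far from Galc, Plod2 and Gdf6, with differences of -0.73 to -0.99. Of the 18 regions with a mean of 500 or more fragments 15 fell and 0 rose, and their differences lay between -1.02 and 0.02. With the deposited fold the first 5 differed by -0.92 to -1.18 and did not pass (limma adjusted p = 0.164 to 0.297), and quantile normalization, which gives equal values to equal ranks, put 4 of them at 0 (adjusted p = 1.0). Without these 18, 122 regions rose and 48 fell. The median log2 count over all regions tested was 5.13 to 6.07 in the 6 libraries. Whether the counts of such strong sites reflect p65 was not tested, since no library without primary antibody was used as a control.

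Among the other falls, Id2, which encodes an inhibitor of helix-loop-helix factors, had 112, 143 and 146 fragments in DMSO and 83, 93 and 111 in LPS over a region at its start (chr12:25094750-25101350, log2 -1.12, SE 0.18, limma adjusted p = 0.000513). The start of Smim4, beside Nt5dc2, had 115, 112 and 78 against 28, 48 and 83 (chr14:31128118-31129746, log2 -1.69, SE 0.29, adjusted p = 0.000977). At Mdh1, which encodes cytosolic malate dehydrogenase, 74, 97 and 69 stood against 54, 19 and 55 (log2 -1.68, SE 0.31, adjusted p = 0.00227). Ccnd1 (cyclin D1) and Slc2a3 (a glucose transporter) fell by 0.80 and 0.90 on the log2 scale. Histone genes were singled out after their values were seen. Of 41 regions with a clustered or linker histone gene (symbols beginning with H1f, H2ac, H2bc, H3c or H4c), 39 had a negative difference, with a median of -0.51 against -0.03 over all regions, and 5 passed the test. The one with the smallest p-value, at H3c15 and H2ac19 (chr3:96236640-96241063), had 361, 504 and 450 against 457, 436 and 514 (log2 -0.53, SE 0.11, adjusted p = 0.00618). With quantile normalization 38 of the 41 were negative and 0 passed. With the deposited fold 33 were negative and 0 passed. Leaving out 1 library left 1 to 3 that passed, and with scaling by the genome background 24 passed. Falls lay at gene ends in 56.3%, close to the 55.9% of all regions tested.

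The promoter windows sort the calls by motif, as a description. They cover 27025 RefSeq genes, non-coding ones included, and none on chromosome 18 was used here. The 64 windows under gained regions belong to 61 genes, of which 7 (11.5%) hold a κB consensus, against 5.14% of all genes with a window and 5.90% of those under regions called in all 6 libraries. Of the 57 genes with a window under a lost region 0 hold it, and of the 43 under regions that fell 3 do (6.98%). CCAAT stands in 56.1% of the genes under lost regions and in 62.8% of those under regions that fell. The share was 36.1% under gained regions, 43.3% under regions called in all 6 libraries and 41.1% of all. TTNGCGC, an E2F motif, stands in 6.56% under gained and 8.77% under lost regions, and in 14% under regions that fell, against 13.8% under regions called in all 6 libraries and 7.24% of all. TGANTCA stands in 9.84% under gained and 1.75% under lost regions, against 8.97% of all. Both strands were searched, and neighbouring histone windows can share 1 region. Sequence under the regions away from gene starts was not analysed here.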

How the data were processed

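The authors called p65 peaks per library and deposited narrowPeak lists: positions, a fold (the ratio of summit to local background), −log10 p, −log10 q and a score. The submitters' processing notes name mm10, fastp 0.20.1, HISAT2 2.1.0 and StringTie 2.0 with no roles; the peak caller is not given in the sources used here. The deposited score was not used, and the deposited −log10 q served in 1 alternative.

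The lists hold no read counts, so summit fragments were recovered from the deposited fold and −log10 p, assuming a Poisson tail and a pseudocount on both sides of the fold, and came out whole (within 0.02) for 99.99% of peaks or more. The lowest background of a list stood for depth; total reads were not used. Lists on chromosomes 1 to 19, X and Y were cut to 37551 peaks by −log10 p and merged at 1 bp of overlap. Genes were the 21887 protein-coding genes of RefSeq GRCm38.p6, with a window of 3 kb, and promoter windows came from the same build. Of 1778 list entries 5 names found no gene. Signal in shared regions was tested with limma 3.58.1 in R 4.3.3 (trend, two-sided, Benjamini-Hochberg), peak numbers with exact two-sided permutation tests. Recovery, calling and the limma fit were tested on simulated data. Intervals and p-values cover the spread among 3 libraries a group only, and no library without primary antibody was used as a control. Python 3.11.15 and pandas 2.3.3 were used.

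Genes were named by rule: those at the 12 strongest gained and 10 strongest lost regions, up to 4 per list by rank, 20 set genes, and the 5 smallest limma p-values in each direction; genes outside it, among them those named for peak numbers or as remaining list members and the histone genes, were chosen after their values were seen. The members and lists were chosen with earlier results of these data known. Same-numbered libraries did not deviate together (residual correlations -0.0149 to -0.00965), so numbers were not used as pairs. The results of 1 gene list and of 1 gene are not reported here.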

Additional observations from a re-analysis of the deposited data

Results flagged for a closer look

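Peaks outside chromosomes 1 to 19, X and Y were used in no comparison. They numbered 224 over the 6 libraries, 26 to 31 in the DMSO and 41 to 50 in the LPS lists, 0.0598% to 0.0826% of a list, and they were noted because they are a signal in data that nothing above describes.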

How the results depend on the processing

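The larger number of gained than lost regions held in all alternatives run. Gained regions numbered 2397 with all called peaks (96 lost), 744 with the strongest 20000 peaks and 4738 with at least 2 of 3 libraries (1691 lost). Lost regions numbered 451 with lists ordered by fold and 87 when absence from the complete lists was required. Genes with a gained region numbered 1460, 484 and 2724 in the first 3 of these and 317 with gene ends only. Genes with a lost region numbered 85 with all peaks, 1321 with at least 2 of 3 libraries, 478 by fold, 75 by absence from the complete lists and 141 with gene ends only. Leaving out 1 library, which asks for 2 of 2 in its group, gave 2098 to 2656 gained and 462 to 834 lost regions, and 1316 to 1623 and 430 to 685 genes: gained regions were 2540, 2656 and 2540 without LPS replicates 1, 2 and 3, and lost regions 834, 682 and 715 without DMSO replicates 1, 2 and 3 and 479, 462 and 486 without the LPS ones. Thinning the summit counts to the lowest genome background of the libraries, chosen after seeing the data, gave 1525 gained and 187 lost regions.

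Genes with more peaks in every LPS list numbered 742 to 840 with 1 library left out and 1797 with all peaks, and those with fewer 624 to 830 and 69, so the balance between them depends on the cut. With the replicate number as a block, 802 genes had more and 706 fewer peaks in all 3 pairs.

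In limma, the log2 of the deposited fold gave 15 rises and 7 falls, and quantile normalization 36 falls. With the replicate block 80 rose and 44 fell; the numbers do not pair the libraries. Leaving out 1 library gave 50 to 107 rises and 33 to 59 falls. Scaling by the genome background gave 85 and 634, and leaving out regions with a mean of 500 or more fragments gave 48 falls; both were chosen after seeing the data. The second Acod1 region turned to -0.30 with the deposited fold. The cause of these differences was not tested. Depth limits what can be said of weak DMSO signal.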
